A study of Mus musculus with 6 samples.

Results

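The RAF-MEK-ERK cascade was examined through 7 genes, Braf, Map2k1, Map2k2 and Mapk3, which encode its kinases, and Dusp6, Etv4 and Etv5, which are transcribed in response to it. They were picked by name, with the values of the Celf1cKO and control lenses already known, and all 7 were found among the 13931 genes of the table. For that reason no p-value is given for their differences between the groups, and whether a member passed the call rule is stated as a description. Tests are reported for genes that are not members, mainly 89 other genes of the pathway and of neighbouring MAP kinase modules.

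RNA-sequencing measured whole lenses of newborn (P0) mice of mixed C57BL/6 and FVB background, in 3 control and 3 Celf1cKO libraries that each held a pool of 2 lenses. Celf1cKO mice carried the germline knockout allele Celf1lacZKI, a Celf1flox allele with loxP sites around an exon, and Pax6GFPCre, a transgene that drives Cre from the lens placode on, mainly in lens and pancreas. The sample labels give the control genotype as Celf1lacZKI/+, so by the labels the germline knockout allele is present in both groups, whereas in the study's methods the usual control is a Celf1flox mouse lacking Cre, and the genotype of the control lenses was not settled here. Values are log2 CPM (the reads of a gene scaled to the size of the library) after the authors' normalization, and differences are Celf1cKO minus control on that log2 scale. Between 40694454 and 44387151 reads per library were counted on genes. Celf1 itself was lower in every Celf1cKO library, with a mean of 8.14 ± 0.69 log2 CPM (SD, n = 3) against 9.74 ± 0.35 (SD, n = 3), but it was not absent, and Celf1cKO library 1 had the highest level of its group, 8.93.

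In this cascade RAF kinases phosphorylate the MEK kinases, which phosphorylate the ERK kinases, and active ERK enters the nucleus and switches on genes that include the PEA3 family of ETS transcription factors and its own phosphatase. In the lens, fibroblast growth factor signals from the surrounding eye through this route and promotes the differentiation of epithelial cells into fiber cells. ERK activity is set by phosphorylation, which RNA-sequencing does not measure. In whole lenses, fewer cells of a type and less RNA per cell cannot be told apart.

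Of the kinases, Map2k1 RNA was 2.0 times as high in Celf1cKO as in control lenses, while Map2k2, Mapk3 and Braf lay within 0.16 of the control level on the log2 scale. Of the ERK targets, Etv4 was 2.56 times as high and Dusp6 and Etv5 were within 0.06 of the control level. Map2k1 was the member that passed the call rule used here, a limma adjusted p-value under 0.05 over all genes (the study itself tested with edgeR), a log2 difference above 0.58 in either direction and a mean log2 CPM above 1. That is 1 of 7 members, beside 9.59% of the 10529 genes whose mean was above 1. The groups did not overlap for Map2k1 and Etv4, which were higher, and for Mapk3, which was lower, beside 40.1% of those genes without overlap, 23.2% higher and 16.9% lower. Because the members were chosen on this comparison, nothing is read from these counts. The median difference of the 7 members was -0.03, and that of the 10529 genes was 0.01.

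**Figure D1:**
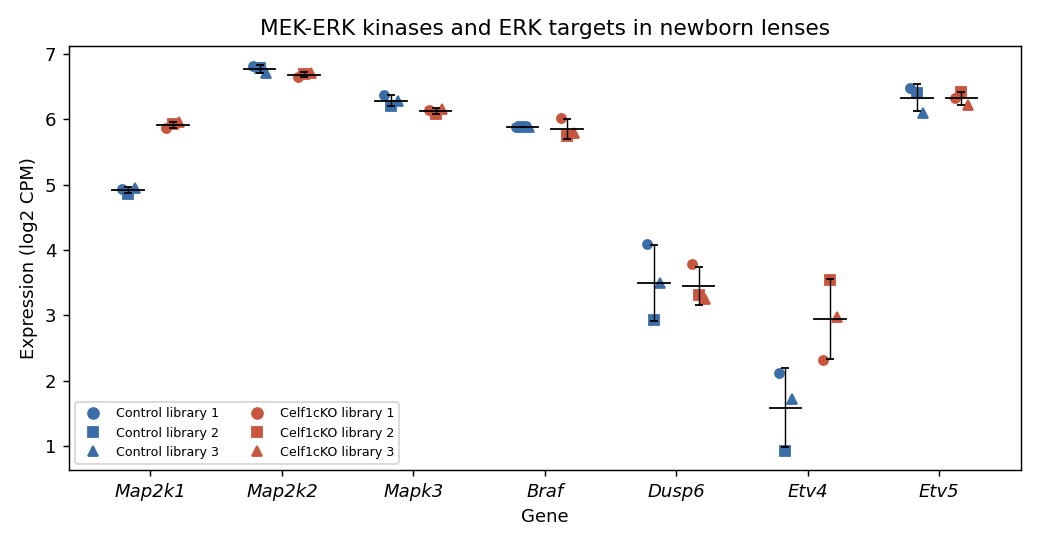
Expression of the 7 genes in each library, with the gene on the x axis and log2 CPM on the y axis. Blue symbols are control and red symbols Celf1cKO libraries, the shape gives the library number, and the bar and whiskers give the mean and SD (n = 3). The groups of Map2k1 are narrow and 0.92 apart, those of Etv4 are wide and 0.20 apart, and those of Dusp6 and Etv5 overlap.

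Map2k1 (ENSMUSG00000004936) encodes MEK1, a kinase that activates ERK, (GRCm38 chr9:64185770-64253631, - strand). In replicate order, the controls had 4.94, 4.86 and 4.95 log2 CPM, against 5.87, 5.93 and 5.96 in the Celf1cKO libraries. All 3 Celf1cKO libraries were above all 3 control libraries, and the gap of 0.92 between the groups was about as large as the whole difference, because neither group spread over more than 0.09. The means were 4.92 ± 0.05 and 5.92 ± 0.05 (SD, n = 3 each), a difference of 1.0 with a standard error of 0.08. Map2k1 received 1079 to 1215 reads in each control and 2507 to 3059 in each Celf1cKO library. The difference stayed between 0.97 and 1.02 when each library was left out in turn. Without control library 2 or Celf1cKO library 3 the thresholds were no longer passed, although the difference was 0.97 and 0.98, and in either case 1 gene of the whole table passed.

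Map2k2 (ENSMUSG00000035027) encodes MEK2, the closest relative of MEK1, and spans chr10:81105915-81133975 (+ strand). The controls measured 6.82, 6.78 and 6.71 log2 CPM and the Celf1cKO libraries 6.64, 6.69 and 6.71. The groups overlapped at their edge, with control library 3 at the level of Celf1cKO library 3. The difference was -0.09 with a standard error of 0.07.

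Mapk3 (ENSMUSG00000063065) encodes ERK1 and spans chr7:126759601-126765819 (+ strand). Its control libraries had 6.37, 6.21 and 6.27 log2 CPM and its Celf1cKO libraries 6.15, 6.07 and 6.15. The lowest control still exceeded the highest Celf1cKO library, but the gap was 0.05 and the difference -0.16 with a standard error of 0.08.

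Braf (ENSMUSG00000002413), a RAF kinase that acts on MEK1 and MEK2, spans chr6:39603237-39725463 (- strand). It was 5.89, 5.88 and 5.88 log2 CPM in the control libraries and 6.02, 5.75 and 5.79 in the Celf1cKO libraries. Celf1cKO library 1 lay above the controls and the other two below them, so the difference of -0.03, with a standard error of 0.10, averages libraries on either side. The exons of Braf share 146 bases with those of Ndufb2 on the opposite strand. The libraries were strand-specific, but whether strand was used in counting is not given in the sources used here. Ndufb2 differed by -0.09 (adjusted p = 0.658, limma). Araf, another RAF gene, differed by 0.27 (adjusted p = 0.186, limma).

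Dusp6 (ENSMUSG00000019960) encodes a cytoplasmic phosphatase that removes the activating phosphates from ERK, and it is itself induced by ERK. It spans chr10:99263231-99267489 (+ strand). The controls stood at 4.09, 2.93 and 3.49 log2 CPM, compared with 3.78, 3.31 and 3.25 for Celf1cKO. The controls spread over 1.16, from 281 reads in library 2 to 650 in library 1, and all 3 Celf1cKO libraries fell inside that range. The difference was -0.06 with a standard error of 0.30, and it went from -0.34 without control library 2 to 0.24 without control library 1.

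Etv4 (ENSMUSG00000017724) and Etv5 (ENSMUSG00000013089) encode PEA3 family transcription factors that are transcribed downstream of fibroblast growth factor and ERK. Etv4 spans chr11:101769742-101785371 (- strand). Controls had 2.12, 0.93 and 1.72 log2 CPM, whereas Celf1cKO lenses had 2.32, 3.54 and 2.98. Celf1cKO library 1 was 0.20 above control library 1 and library 2 was highest. Reads on Etv4 were few, 69 to 165 in each control and 213 to 561 in each Celf1cKO library. The difference was 1.36 with a standard error of 0.40, and it went from 1.02 without control library 2 to 1.67 without Celf1cKO library 1.

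Etv5 spans chr16:22381309-22439719 (- strand). It was 6.48, 6.41 and 6.09 log2 CPM in the control libraries and 6.33, 6.42 and 6.21 in the Celf1cKO libraries. The Celf1cKO libraries lay inside the range of the controls, and the difference was -0.01 with a standard error of 0.12. Etv1, the other PEA3 family gene, differed by -0.03 (adjusted p = 0.882, limma).

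The directions of the small differences depended on the scaling of the libraries. When the libraries were scaled by their total counted reads, the median difference of the 10529 genes was 0.23, and the differences of Map2k2, Mapk3, Braf, Dusp6 and Etv5 were 0.14, 0.07, 0.20, 0.17 and 0.22, none above that median. Map2k1 was then at 1.23 and Etv4 at 1.58, both above it.

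Levels were compared between genes as CPM per kb of annotated exon, a linear scale that takes account of gene length. The length joins all annotated exons of a gene, 3391 bases for Map2k1 and 5663 for Map2k2. It can exceed the length of the RNA expressed, so levels compared between genes depend on this choice. In control lenses Mapk3 was highest with 34.5 ± 1.97 (SD, n = 3), and 93.3% of the genes with a mean log2 CPM above 1 and an annotated length were below it. Etv5 with 19.7 ± 2.69 and Map2k2 with 19.2 ± 0.770 followed, and these 2 neighbours did not differ beyond their spread. Map2k1 was at 8.90 ± 0.295, Braf at 4.25 ± 0.0128 and Dusp6 at 3.80 ± 1.51, of which the last 2 did not differ beyond their spread, and Etv4 was lowest with 1.01 ± 0.396. In Celf1cKO lenses Map2k1 reached 17.8 ± 0.558 CPM per kb, beside 18.1 ± 0.424 for Map2k2 and 19.5 ± 1.37 for Etv5, 3 neighbours whose ranges of mean ± SD overlapped. Etv4 in Celf1cKO lenses, at 2.61 ± 1.06, was still below Dusp6, at 3.52 ± 0.745, and there the spreads overlapped.

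**Figure D2:**
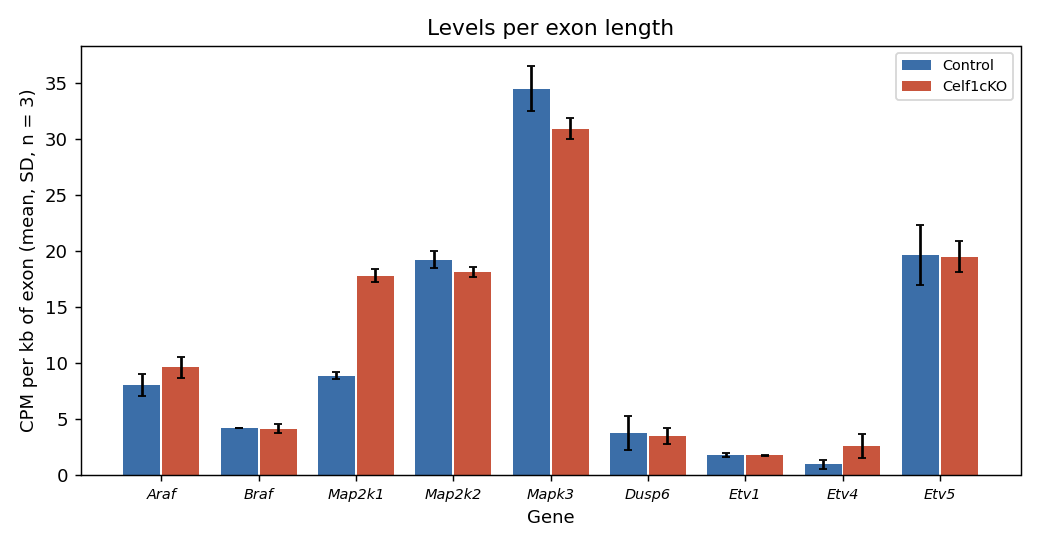
Levels of the 7 genes and of their relatives Araf and Etv1, with the gene on the x axis and CPM per kb of exon on a linear y axis that starts at 0. Bars are means and whiskers SD (n = 3), blue for control and red for Celf1cKO lenses. The Map2k1 bar goes from 8.90 to 17.8, which is close to the Map2k2 bar at 18.1.

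Ratios of related genes within a library do not depend on how libraries are scaled. The log2 ratio of Map2k1 to Map2k2 reads was -1.88, -1.91 and -1.76 for the controls, compared with -0.78, -0.77 and -0.75 for Celf1cKO. The groups were far apart, and per exon length Map2k1 was at 0.463 times the level of Map2k2 in control and at 0.983 times in Celf1cKO lenses. The ratio of Braf to Araf overlapped between the groups, with a difference of -0.30. Etv4 stood to Etv5 at a log2 ratio of -4.37, -5.51 and -4.39 in control and -4.02, -2.89 and -3.24 in Celf1cKO libraries. The groups did not overlap, and Celf1cKO library 1 lay closest to the controls.

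**Figure D3:**
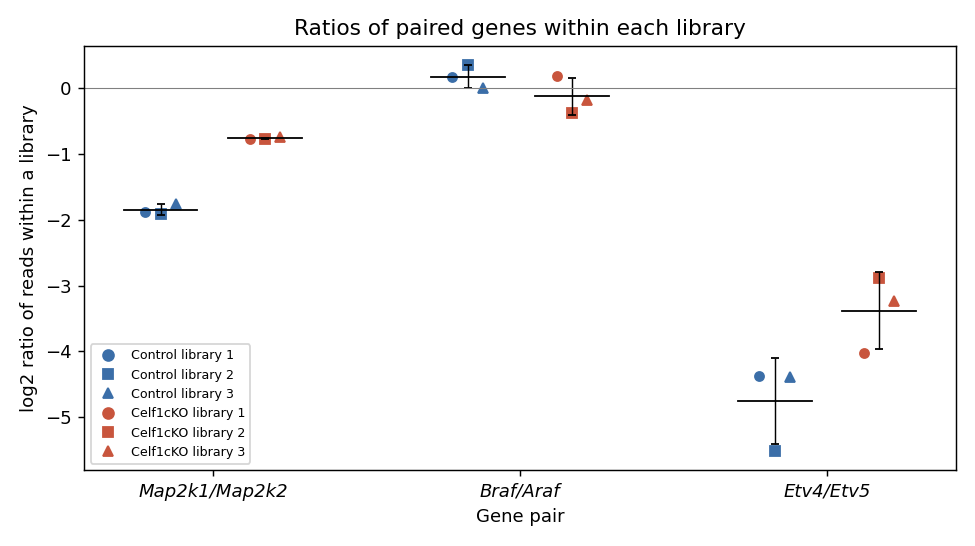
Log2 ratio of the reads of paired genes within each library (y axis) for 3 gene pairs (x axis), with control libraries in blue, Celf1cKO libraries in red and the mean and SD in black (n = 3). The Map2k1/Map2k2 ratio goes from a mean of -1.85 to -0.76 with no overlap, and the Braf/Araf ratio has means of 0.17 and -0.12 with overlap.

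Celf1 protein is known to bind GU-rich elements in the 3′ untranslated region (UTR) of its target RNAs, so these regions were searched on the sense strand for TGTTTGT and for the longer GU-rich element of 11 bases, which is 2 overlapping copies of TGTTTGT that share TGT. The longest UTR annotated for each gene in GENCODE M21 (GRCm38) was used. None of the 7 genes held the longer element, which was present in 4.27% of the 13105 genes with an annotated UTR. The shorter was present in 29.98% of them. It was absent from the UTRs of Map2k1 (915 bases), Map2k2 (1607 bases), Mapk3 (612 bases) and Etv4 (624 bases). Among genes of like UTR length, where the shorter UTR was at least 80% as long as the longer, 20.4%, 32.0%, 14.2% and 14.5% held it. Dusp6, Etv5 and Braf held 1, 1 and 3 matches in 1190, 2161 and 7145 bases, where 24.7%, 41.3% and 86.1% of genes of like UTR length held at least 1. The matches are shown because they place the element in genes of this group, with TGTTTGT in capitals and 8 bases on either side.
Dusp6, position 532 of its UTR: cttgacagTGTTTGTttggcttg
Etv5, position 72: agtggtttTGTTTGTgttcttgg
Braf, position 2763: gaagtccgTGTTTGTgcagagcg
Braf, position 5404: agccagtgTGTTTGTtttgtttt
Braf, position 6838: ttgaatttTGTTTGTtccctata
Position 1 is the first base after the stop codon. The members with matches differed by -0.06 to -0.01, and those without a match by -0.16 (Mapk3), -0.09 (Map2k2), 1.0 (Map2k1) and 1.36 (Etv4). A match is not evidence of binding, and its absence says only that these letters do not occur in that UTR.

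Of the other genes of the pathway, 92 had been listed by role, 89 were in the table and 76 had a mean log2 CPM above 1. Dusp2, Fosl1 and Map2k7 were not analysed here. Of the 76, 7 rose, 0 fell and 69 did not pass the thresholds of the limma fit. Of the 89, 33 (37.1%) had an unadjusted limma p-value under 0.05, beside 29.9% of all 13931 genes. The 89 include 15 kinases of neighbouring MAP kinase modules, and 9 of these 15 (60%) had such a p-value. These kinases also hold 2 of the 7 genes that rose. The 7 genes are 9.21% of the 76, close to the 9.59% of all genes, with 6.21% called higher and 3.38% called lower. When replicate number entered as a block, 5 passed, and Spry4 and Spred3 did not, and limma voom on the reads also gave 5. The median difference of the 76 genes was 0.06, beside 0.01 over all 10529 genes. The count rested on single libraries and was 0 without control library 2 or Celf1cKO library 3, 1 without Celf1cKO library 2, and 2 without control library 1 or 3. It was 8 without Celf1cKO library 1. Calls over the whole table moved in the same way, from 1010 to 1 without control library 2 or Celf1cKO library 3. They were 430 without Celf1cKO library 2, 587 and 428 without control library 1 and 3, and 1879 without Celf1cKO library 1.

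Upstream of RAF, 1 of 21 genes listed under Ras activation rose and 0 fell. The list also holds genes that turn Ras off, so a rise within it is not a sign of more active Ras. The docking protein gene Gab2 rose from 3.88 ± 0.37 to 4.99 ± 0.22 log2 CPM (SD, n = 3 each), a difference of 1.11 (standard error 0.20, adjusted p = 0.0192, limma). Its control libraries had 4.16, 4.01 and 3.47 and its Celf1cKO libraries 4.73, 5.14 and 5.11, without overlap. A further 6 genes of this list passed the adjusted p-value threshold of 0.05 in limma with a difference under the threshold of 0.58, and those named here were chosen after their values were seen. Among them, the adaptor Grb2 (0.44), the exchange factor Sos1 (0.50), the GTPase Rras (0.46) and the scaffold Shoc2 (0.45) were higher, and the GTPase Mras (-0.44) was lower. By the adjusted p-value alone, 7 of the 21 genes passed, 6 of them higher, beside 14.5% of all genes, 9.83% higher and 4.70% lower. Over all lists, 15 of the 76 genes passed in this way, 14 of them higher, and no other list held more than 2. Shc1, the adaptor with the highest log2 CPM of the list, had 8.83 ± 0.24 and 8.76 ± 0.12 log2 CPM (SD, n = 3 each) and did not pass (adjusted p = 0.749, limma).

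None of the 7 scaffolds and inhibitors passed the thresholds, and 2 of the 7 had an unadjusted limma p-value under 0.05, beside 29.9% of all 13931 genes. Such a p-value was found for 9 of 21 genes listed under Ras activation and 0 of 3 RAF, MEK and ERK paralogs. It was found for 4 of 8 ERK-activated kinases, 4 of 9 phosphatases and 4 of 16 other ERK target genes. Pea15a, which holds ERK in the cytoplasm and has the highest log2 CPM among the scaffolds and inhibitors, differed by -0.21 (adjusted p = 0.143, limma). Of the 8 kinases that ERK or related kinases activate, 1 rose. Rps6ka2, which encodes the ribosomal S6 kinase RSK3, was 6.31, 6.43 and 6.63 log2 CPM in control and 6.81, 7.43 and 7.28 in Celf1cKO libraries, a difference of 0.72 (adjusted p = 0.0370, limma). Mknk2, with the highest log2 CPM of the 8, differed by 0.10 (adjusted p = 0.558, limma).

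Of the other MAP kinase phosphatases, 5 of 9 had a mean above 1 and 1 of these rose. Dusp16, whose product acts mainly on JNK and p38, was 4.46, 4.72 and 4.12 log2 CPM in control and 5.19, 5.16 and 5.15 in Celf1cKO libraries, a difference of 0.73 (adjusted p = 0.0277, limma). Dusp1, with the highest log2 CPM of the 9, differed by -0.18 (adjusted p = 0.454, limma). None of the 10 other ETS factor genes passed, with 1 unadjusted limma p-value under 0.05. Gabpa, with the highest log2 CPM of them, differed by -0.03 (adjusted p = 0.887, limma). Ets1, named after its values were seen, had 3.51, 3.67 and 3.85 log2 CPM in the controls and 3.19, 0.19 and 2.79 in the Celf1cKO libraries, where library 2 stood far below the others, as it did in the summed markers of lens epithelium and of endothelium.

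Among the other ERK target genes, 12 of 16 had a mean above 1, and 2 of these rose. Spry4 and Spred3 encode feedback inhibitors of the pathway. Spry4 was 1.86, 1.27 and 1.73 log2 CPM in control and 2.58, 2.97 and 2.29 in Celf1cKO libraries, a difference of 0.99 (adjusted p = 0.0464, limma, and 0.0563 with the replicate block). Spred3 was 2.99, 1.69 and 2.71 in control and 3.60, 3.99 and 3.60 in Celf1cKO libraries, a difference of 1.27 (adjusted p = 0.0493, limma, and 0.0525 with the replicate block). As in Etv4 and Dusp6, control library 2 was the lowest library for both. The Sprouty genes Spry1 and Spry2 had differences of -0.14 and 0.08 and did not pass. Ccnd1, which encodes cyclin D1 and had the highest log2 CPM of the list, differed by 0.13 (adjusted p = 0.395, limma).

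Of the kinases of the neighbouring MAP kinase modules, 10 of 15 had a mean above 1 and 2 rose. The atypical kinase gene Mapk6, which encodes ERK3, was 5.43, 5.16 and 4.96 log2 CPM in control and 6.12, 6.21 and 6.04 in Celf1cKO libraries, a difference of 0.94 (adjusted p = 0.0109, limma). Mapk10, which encodes the kinase JNK3, was 4.28, 4.44 and 4.58 in control and 4.77, 5.47 and 5.19 in Celf1cKO libraries, a difference of 0.71 (adjusted p = 0.0486, limma). Map2k4, a kinase upstream of JNK and with the highest log2 CPM of this list, differed by 0.27 (adjusted p = 0.115, limma).

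**Figure D4:**
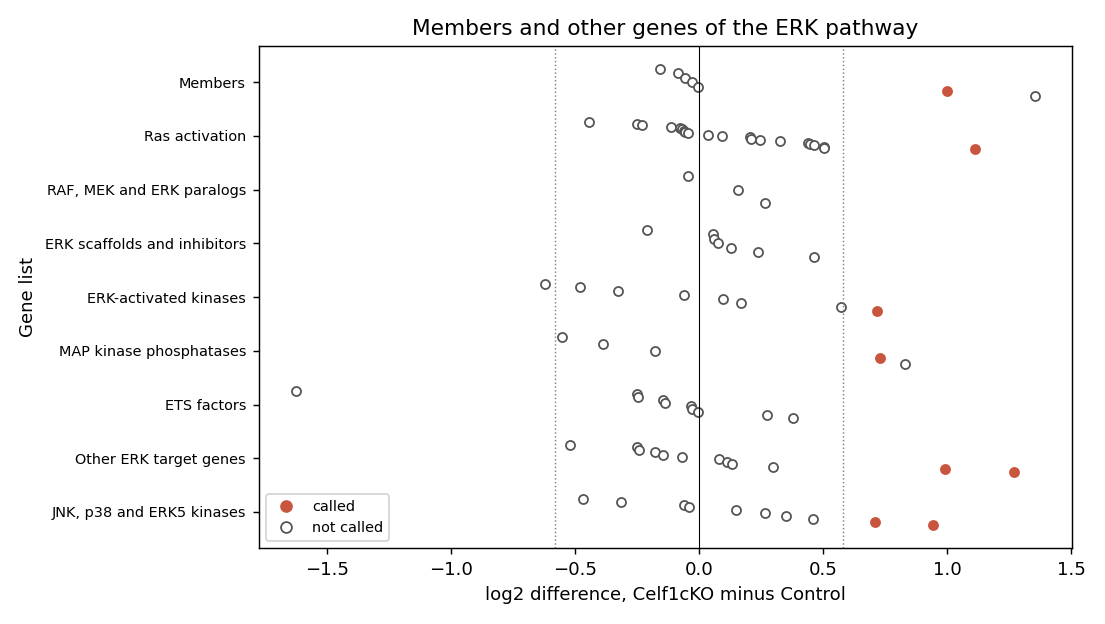
Log2 difference between Celf1cKO and control lenses (x axis) of the 7 members and of 76 other genes, in rows by gene list (y axis). The 76 are genes of the pathway and of neighbouring MAP kinase modules. Each circle is a gene, filled where it passed the thresholds, and dotted lines mark differences of 0.58 in either direction. The 8 filled circles all lie on the right, and Etv4, at 1.36, is open.

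The genes with the profile closest to each ERK target were found as those with the smallest root mean square difference over the 6 libraries, after centring each gene on its mean log2 CPM. A high or low library that such a gene shares with its target follows from this choice. For Dusp6 they were Nab2 (0.102), Plppr2 (0.144) and Plk2 (0.148). Nab2, a corepressor of EGR transcription factors, was 2.07, 0.91 and 1.48 log2 CPM in control and 1.64, 1.16 and 0.95 in Celf1cKO libraries, with the same high control library 1 and low control library 2 as Dusp6. For Etv4 the closest were Fchsd1 (0.206), Hivep3 (0.209) and S100a10 (0.232), and all 3 were lowest in control library 2 and highest in Celf1cKO library 2. For Etv5, whose libraries differed little, they were Naa50 (0.0258), Arl3 (0.0318) and Selenot (0.0333).

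Markers of the cell types that a lens preparation can hold were summed in each library. The 8 fiber cell markers measured, which include Mip, summed to between 25003 and 34763 CPM in control and between 19734 and 21045 CPM in Celf1cKO libraries, and 4 of them fell and 0 rose. The 8 markers of lens epithelium summed to between 586 and 633 CPM in control libraries and to 475, 117 and 302 CPM in Celf1cKO libraries 1 to 3, and 2 of them, Foxe3 and Pdgfra, fell. The 6 endothelial markers summed to between 78.7 and 97.3 CPM in control and to 94.0, 20.9 and 44.2 CPM in Celf1cKO libraries 1 to 3. In the Celf1cKO libraries Etv4 was highest in library 2 and lowest in library 1, and Map2k1 varied by 0.09 among them. Map2k1 was higher, and the sum of fiber markers lower, in all 3 Celf1cKO libraries than in any control. Without Celf1cKO library 2 the difference was 1.06 for Etv4 and 0.996 for Map2k1. The 4 retina markers measured summed to 6.997, 0.942 and 21.3 CPM for the controls, compared with 3.70, 1.46 and 12.02 CPM for Celf1cKO. Control library 2, which had the lowest Dusp6 and Etv4, also had the lowest sum of retina markers. Among controls, retina markers were highest in library 3, and Dusp6 and Etv4 were highest in library 1. Celf1cKO library 2 had the lowest retina sum of its group and the highest Etv4. These orders rest on 3 libraries per group, and a link between them was not tested. The 5 pigment cell markers summed to between 3.58 and 22.0 CPM in control and between 6.78 and 26.9 CPM in Celf1cKO libraries, the 5 macrophage markers to between 2.83 and 8.71 CPM and between 4.63 and 7.41 CPM, and the blood marker Alas2 was at or under 1.35 CPM in all 6 libraries. The part of these cell types in the differences of the 7 members, including Map2k1, and of Ets1 was not tested. Lim2, Crx, Nrl, Rpe65, Ptprc, 4 hemoglobin genes and the 6 markers of cornea and skin epithelium were not analysed here.

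**Figure D5:**
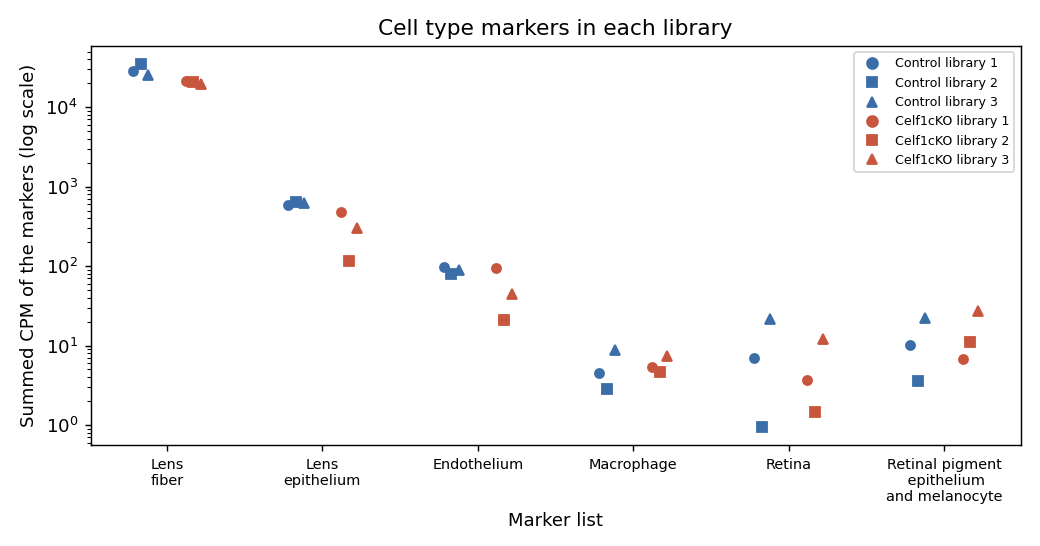
Summed CPM of cell type markers (y axis, log scale) for 6 marker lists (x axis), with 1 symbol per library, blue for control and red for Celf1cKO. Epithelial and endothelial markers are lowest in Celf1cKO library 2, at 117 and 20.9 CPM, and retina markers are lowest in control library 2, at 0.942 CPM.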

How the data were processed

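RNA from newborn mouse lenses, in 3 control and 3 Celf1cKO libraries, was sequenced by the authors as strand-specific paired-end reads. Per the labels and the methods, reads were aligned to GRCm38.p6 with STAR (2.7.8a), and uniquely mapped reads were counted per gene with featureCounts (2.0.0). The authors kept genes above 0.2 CPM, normalized the libraries with edgeR and deposited log2 CPM values for 13931 genes. Their columns of fold-changes, average level, F statistics, p-values, FDR and group means were not used.

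The groups were taken from the sample titles. Reads were worked back from the even steps of the values, of which 100% were whole within 0.01 of a read. The deposited log2 CPM values of both groups were compared by limma (3.58.1, R 4.3.3), with a variance trend, no block and Benjamini-Hochberg adjustment over all genes, because the deposited values are not counts. The mean log2 CPM was that of the 6 libraries. The fit was tested on simulated counts. Deviations from the group mean correlated over genes between equally numbered libraries (0.26, 0.39 and 0.38), so the replicate number was used as a block in an alternative, although the methods describe no pairing. Other alternatives were no variance trend, log2(CPM + 1), a filter on low values, quantile normalization, total-read scaling, limma voom and each library left out. Exon lengths, positions and UTRs came from GENCODE M21, in which 13928 gene identifiers were found, and figures were drawn with matplotlib (3.10.9).

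The members, gene lists and tests were chosen with earlier results of these data known. The genes named were the members, Celf1, the relatives Araf and Etv1, every listed pathway gene that passed, the gene with the highest mean in each list, and the 3 closest profiles of Dusp6, Etv4 and Etv5. Ndufb2, Ets1, Spry1, Spry2, Lamtor3, Rps6ka6 and the Ras activation genes with small differences were added after their values were seen. Counting intervals were not computed, since the spread between libraries was the error used. Some genes of the lists count in the totals and are not reported here by name.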

Additional observations from a re-analysis of the deposited data

How the results depend on the processing

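Of all 13931 genes, 1010 passed the thresholds, 654 higher and 356 lower in Celf1cKO lenses. Without a variance trend these numbers were 412, 299 and 113, and with total-read scaling, which raised the share called higher from 64.8% to 89.4%, 1846, 1650 and 196. Of the other pathway genes, 7 passed, 1 without a variance trend and 16 with total-read scaling, all of them higher. With the replicate block 1255 genes and 5 pathway genes passed, and the member that passed was Map2k1 as without it. With quantile normalization or total-read scaling 2 members passed, Map2k1 and Etv4. Total-read scaling gave Map2k1 1.23, Map2k2 0.14, Mapk3 0.068, Braf 0.20 and Etv5 0.22, and quantile normalization gave Map2k1 0.93, Map2k2 -0.16 and Mapk3 -0.24. Both settings rescale every gene of a library.

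With each library left out, between 1 and 1879 genes passed (1 to 1024 higher, 0 to 855 lower), between 0 and 8 pathway genes (0 to 7 higher, 0 to 1 lower) and between 0 and 2 members, with Etv4 the second without Celf1cKO library 1. The lowest counts came without control library 2 or Celf1cKO library 3, and the cause was not tested. The differences then ranged from 0.97 to 1.02 for Map2k1, -0.12 to -0.06 for Map2k2, -0.20 to -0.11 for Mapk3, -0.11 to 0.02 for Braf, -0.34 to 0.24 for Dusp6, 1.02 to 1.67 for Etv4 and -0.12 to 0.07 for Etv5. The differences of the log2 ratios ranged from 1.06 to 1.13 for Map2k1/Map2k2, -0.45 to -0.17 for Braf/Araf and 0.997 to 1.69 for Etv4/Etv5. Of the 7 pathway genes that passed, Mapk6 passed in 11 and Gab2 in 9 of 13 alternatives, and the other 5 in 4 to 7. The lowest read count of a member was 69, for Etv4 in control library 2, and counting error was not separated from the spread between libraries.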
